A study of Mus musculus with 12 samples.

Results

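The ventral hippocampus of stressed mice that ran on a wheel without behavioural benefit was compared with that of stressed mice that stayed sedentary. The members were the libraries titled as ineffective responders to voluntary wheel running (SER, mice 6, 19 and 20) and as sedentary stress-susceptible mice (SS, mice 18, 19 and 21), which are 6 of the 12 libraries. All were wild-type male C57BL/6J mice, 8 weeks old when naive, and both groups had been restrained for 2 hours a day on 14 days and classed as stress-susceptible. SER mice then had a running wheel in the home cage, for 14 days according to the sample titles and for 4 weeks according to the protocol text, and the sources used here do not settle which holds. The other 6 libraries came from unstressed, sedentary controls (C, 3 mice) and from running mice whose behaviour improved (effective responders, SES, 3 mice). They entered the same statistical fit and are given beside the members where a result turns on them. SER and SES mice were told apart by their behaviour after running, and mouse numbers shared by groups name different mice. Each library is 1 mouse and covers a bulk tissue piece, so fewer cells of a type and less RNA per cell cannot be told apart in any value that follows.

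The ventral hippocampus links memory circuits to emotional behaviour. Its output comes from pyramidal neurons of CA1 and subiculum, the dentate gyrus supplies granule cells, and astrocytes around the synapses take up glutamate and potassium. Running is known in rodents to act on hippocampal growth factors, neurogenesis and glia, and chronic stress to act on glucocorticoid signalling and on synapses.

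Library totals were 12714883, 11943969 and 9323607 estimated counts in SER and 10201269, 12277527 and 11413840 in SS. Lars2, Zc3h7a, Cmss1 and Filip1l were listed at 0 in all 3 SER libraries and were set aside. Lars2, the mitochondrial leucyl-tRNA synthetase, had 274209, 56579 and 121208 counts in the SS libraries. Among deposited transcripts, 7 were listed at 0 in all 3 SER libraries with at least 10 counts in each of the other 9, and they belonged to those 4 genes and to Lingo2, Phyhd1 and Pik3cg. The same count was 0 for SS, 0 for SES and 2 for C. A difference in how the files of a group were counted cannot be told apart from the group itself, and was not tested.

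The SS libraries did not resemble each other evenly, and this touches the results below. Across the genes tested, the log2 CPM (read counts relative to library size, scaled with TMM factors) gave Pearson's r = 0.991 between SS mice 19 and 21. SS mouse 18 had r = 0.955 and 0.951 with the other SS mice, whereas r among the SER libraries was 0.983 to 0.986. With SER mice 6, 19 and 20, SS mouse 18 had r = 0.976, 0.979 and 0.972. In the same order SS mouse 19 had 0.972, 0.973 and 0.973, and SS mouse 21 had 0.967, 0.97 and 0.968. SS mouse 18 was thus not further from SER mice 6 and 19 than SS mice 19 and 21 were. With SER mouse 20 its r lay between those of SS mice 19 and 21. Genes are not independent replicates, so these values are descriptions. Malat1, a long noncoding RNA kept in the nucleus, had 511, 3813 and 5269.7 CPM in the SS libraries 18, 19 and 21, and the SER libraries 6, 19 and 20 had 1415, 1489 and 995 CPM. Ttr, the transthyretin gene of the choroid plexus, stood at 5151, 5.80 and 12.1 CPM in SS and at 36.9, 1093 and 63.7 CPM in SER. SS mouse 18 was thus high in choroid plexus RNA and low in nuclear RNA, SS mice 19 and 21 were the reverse, and the SER mice lay between them for both genes. Over the 16 choroid plexus and ependymal markers the summed level was 249.6 to 1503 CPM in SER and 105 to 6819 CPM in SS, and over the 10 nuclear RNAs it was 2325 to 3143 and 1501 to 12323 CPM. Markers of hippocampal neurons were detected in all 6 libraries, with none of the CA1, dentate or CA2 and CA3 markers at 0. Thalamic markers summed to 363 to 403 CPM in SER and 322 to 584 CPM in SS, with SS mouse 18 highest. Prkcd, a thalamic marker, stood at 59.9, 9.06 and 10.4 CPM in SS and 14.7, 14.4 and 11.2 CPM in SER.

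In edgeR's quasi-likelihood test, 2 of 14548 genes were higher in SER than in SS at an adjusted p under 0.05 (0.0137% of genes) and 0 were lower. These were Pou3f1 and Sox9. A further group of genes lay just outside the threshold, and at an adjusted p under 0.1 the counts were 57 higher (0.392%) and 37 lower (0.254%). There were 2638 genes at an unadjusted p under 0.05 (18.1%), of which 1228 were higher (8.44%) and 1410 lower (9.69%). By the Wald test of DESeq2, calls numbered 305 genes higher (2.10%) and 245 lower (1.68%), and limma-voom called 3 higher (0.0206%) and 0 lower. Without SS mouse 18, edgeR called 1080 higher (7.32%) and 1328 lower (9.00%), with 30.8% of genes at an unadjusted p under 0.05. When the nuclear RNA level was added to that fit as a covariate, an alternative chosen after seeing the data, it called 0 higher and 0 lower, and 1078 genes (7.30%) had an unadjusted p under 0.05, of which 612 (4.15%) were higher and 466 (3.16%) lower. With the nuclear RNA covariate and all libraries edgeR called 0 genes, and in a fit of only the 2 groups 0. Fits against SS mouse 18 alone, given below, were also chosen after seeing the data. All 3 SER values lay above all 3 SS values for 1299 genes (8.93%) and below them for 1155 (7.94%). These shares are the background against which counts of separated list members are read. The median log2 fold change over all genes tested was −0.01.

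**Figure D1:**
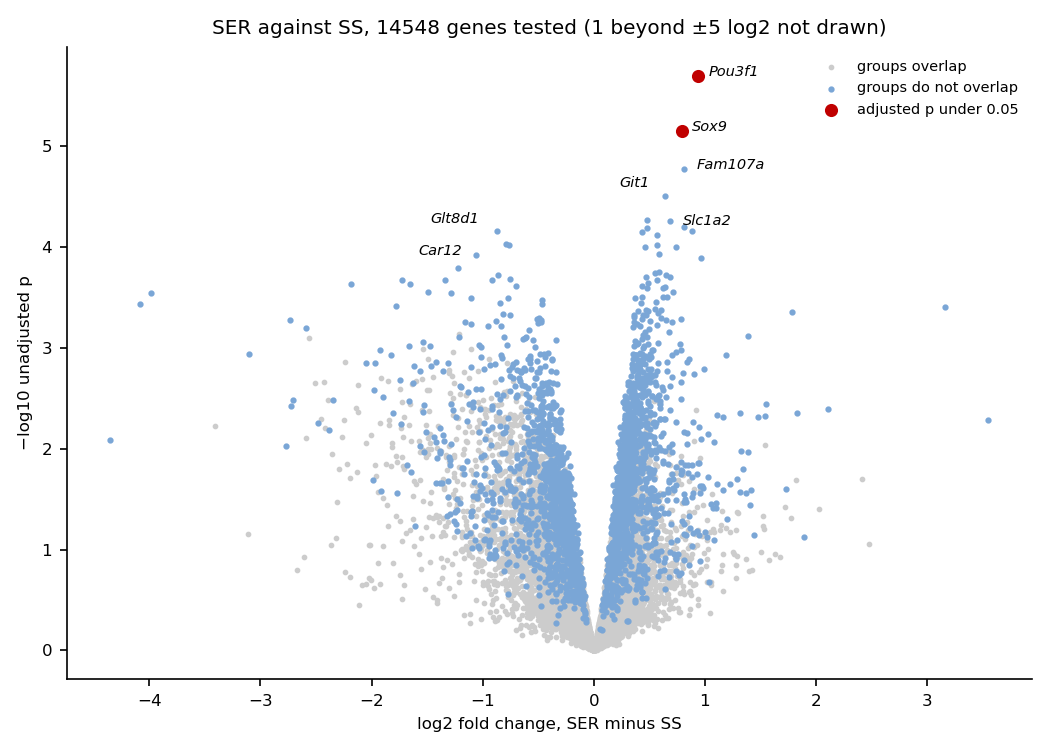
Log2 fold change of SER minus SS (horizontal axis) against −log10 of the unadjusted p of edgeR's test (vertical axis) for the genes tested, 1 point per gene. Red points are Pou3f1 and Sox9, the genes with an adjusted p under 0.05; blue points are genes whose SER and SS values do not overlap and grey points are the others. The highest points lie on the right-hand side, and most of the widely scattered points beyond 2 log2 units lie on the left; 1 gene beyond 5 log2 units is not drawn.

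Pou3f1 was the gene with the smallest p. It encodes a POU-domain transcription factor (also called Oct6 or SCIP) that marks CA1 pyramidal neurons in the hippocampus (mm10, chromosome 4, 124657646 to 124660655). SER mice 6, 19 and 20 had 119, 106 and 115 CPM, while SS mice 18, 19 and 21 had 59.6, 67.3 and 50.8 CPM. The groups did not overlap, and the lowest SER value was more than 1.5 times the highest SS value. The means were 113 ± 6.45 and 59.2 ± 8.27 CPM (SD, n = 3), a log2 fold change of 0.94 ± 0.12 (SE; edgeR adjusted p = 0.0315). SES mice 9, 10 and 12 had 104, 108 and 94.4 CPM and C mice 2, 8 and 12 had 76.2, 71.1 and 90.8 CPM, so SER and SES values overlapped and both running groups lay above both sedentary groups. The log2 difference between SER and SES was 0.15 ± 0.12 (adjusted p = 0.999). Leaving out SER mouse 6, 19 or 20 or SS mouse 21 ended the call, with log2 fold changes of 0.91, 0.98, 0.93 and 0.84 (adjusted p = 0.14, 0.0777, 0.257 and 0.215). In the fit of only the 2 groups, with the nuclear RNA covariate and against SS mouse 18 alone the call ended too, at log2 differences of 0.94, 0.93 and 0.95 (adjusted p = 0.25, 0.158 and 0.166).

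Most other POU factors lay on the same side. POU factors share a bipartite DNA-binding domain and act in neural development. Of 9 listed family members 7 were tested, 1 (Pou3f1 itself) was called higher and 0 lower, and 5, Pou3f1 included, had all SER values above all SS values. Pou3f2, the brain-expressed Brn2 factor, had 27.1, 26.8 and 30.1 CPM in SER mice 6, 19 and 20, while SS mice 18, 19 and 21 had 16.2, 18.3 and 18.7 CPM. Its groups did not overlap, and its log2 fold change was 0.66 ± 0.14 (adjusted p = 0.0939). The family median, with Pou3f1 included, was 0.51, with a lowest value of −0.58 (Pou2f2). Without SS mouse 18 the median was 0.49 and 4 higher and 0 lower of 7 tested were called.

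Sox9 was the other called gene. It encodes the SRY-box transcription factor that in the adult brain is found mainly in astrocytes and neural stem cells (mm10, chromosome 11, 112782210 to 112787757). SER mice 6, 19 and 20 had 101, 95.9 and 99.5 CPM, while SS mice 18, 19 and 21 had 59.9, 59.9 and 51.5 CPM. The SER values lay within a narrow range, well above all SS values. The means were 98.7 ± 2.50 and 57.1 ± 4.87 CPM (SD, n = 3), a log2 fold change of 0.79 ± 0.11 (edgeR adjusted p = 0.0485). SES mice had 67.3, 71.4 and 73.1 CPM and C mice 68.6, 58.4 and 50.1 CPM, so the 3 SER mice were the highest of all 12 mice. The log2 difference between SER and SES was 0.48 ± 0.11 (adjusted p = 0.999), which did not pass. The call against SS ended without any 1 of SER mice 6, 19 and 20 or SS mice 19 and 21, with log2 fold changes of 0.78, 0.81, 0.79, 0.83 and 0.73 (adjusted p = 0.14, 0.0777, 0.352, 0.218 and 0.377). It also ended with upper-quartile factors (0.78, adjusted p = 0.0661), in the fit of only the 2 groups (0.79, adjusted p = 0.25), with the nuclear RNA covariate (0.76, adjusted p = 0.158) and against SS mouse 18 alone (0.74, adjusted p = 0.209).

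**Figure D2:**
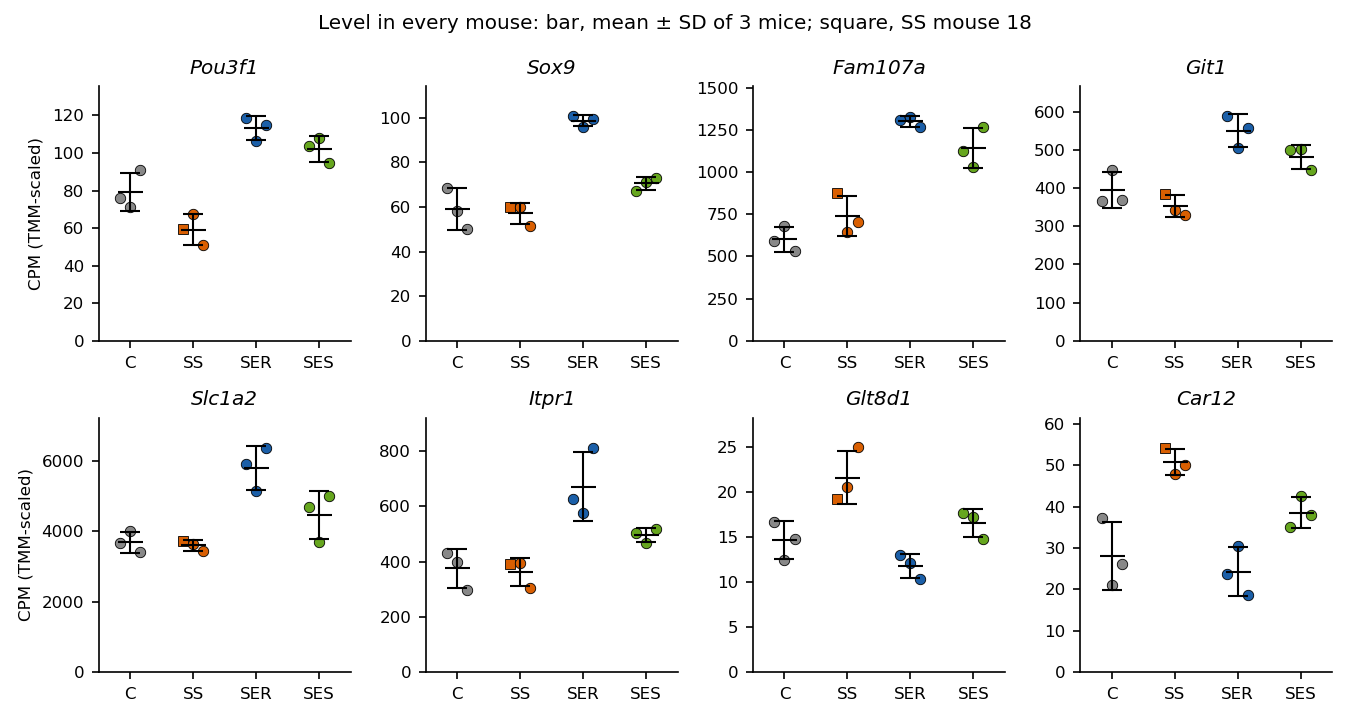
Level in CPM (vertical axes, from 0) of 8 genes in each of the 12 mice, by group (horizontal axes); points are mice, the square is SS mouse 18, and bars are the mean ± SD of 3 mice. Pou3f1, Sox9, Fam107a, Git1, Slc1a2 and Itpr1 have all SER points above all SS points, and Glt8d1 and Car12 all SER points below them.

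Most astrocyte markers had higher values in SER than in SS, although 1 passed the test. Of 23 markers 11 had all SER values above all SS values and 0 had all below, beside 8.93% and 7.94% of all genes. The edgeR test called 1 of them higher (Sox9) and 0 lower, and 22 of 23 had a positive log2 fold change. The median was 0.30, beside −0.01 over all genes tested. Relative to the SS mean, the median marker stood at 0.39, 0.28 and 0.29 in SER mice 6, 19 and 20 and at 0.13, −0.03 and −0.12 in SS mice 18, 19 and 21 on the log2 scale. In SES mice it stood at 0.16, 0.05 and 0.11 and in C mice at −0.01, 0.07 and −0.01, so every SER mouse lay above every other mouse. Without SS mouse 18 the median was 0.41 with 14 higher and 0 lower of 23 tested called, and against SS mouse 18 alone it was 0.18. With the nuclear RNA covariate it was 0.22, and 0.21 when that mouse was left out as well.

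Slc1a2, the main astrocyte glutamate transporter (GLT-1; mm10, chromosome 2, 102658239 to 102790784), had 5899, 5129 and 6357 CPM in SER mice 6, 19 and 20, while SS mice 18, 19 and 21 had 3717, 3646 and 3429.9 CPM. All SER values were higher than all SS values, and the log2 fold change was 0.69 ± 0.12 (adjusted p = 0.0867), which did not pass. SES mice had 4697, 3709.6 and 5002 CPM, and the SER minus SES difference was 0.37 ± 0.12 (adjusted p = 0.999). The reads were assigned mostly to 2 of its 3 deposited transcripts. NM_001077514 had 32983, 18896 and 32896 counts in SER and 13548, 13782 and 8554 in SS, and NM_001077515 had 40750, 39961 and 24820 against 22763, 31979 and 31662. In the test on transcripts their log2 fold changes were 1.30 ± 0.41 and 0.32 ± 0.09 (adjusted p = 0.294 and 0.266), and the division of reads between isoforms is an estimate. Glul, glutamine synthetase, which turns the glutamate taken up into glutamine, had 4172, 3330.00 and 3486 CPM in SER mice 6, 19 and 20, while SS mice 18, 19 and 21 had 3157, 2458 and 2304 CPM. The groups did not overlap, with SS mouse 18 closest to SER, and the log2 fold change was 0.47 ± 0.12 (adjusted p = 0.114). Over the 12 genes of glutamate and potassium handling the median was 0.26, 5 genes had all SER values above and 2 all below. None was called in either direction, and without SS mouse 18 4 higher and 0 lower of 12 tested were called. The glutamate and potassium handling median was 0.18 without SS mouse 18, 0.20 against that mouse alone, 0.22 with the nuclear RNA covariate, and −0.15 when the covariate was added and that mouse left out.

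Factors that set astrocyte fate were examined with the Notch pathway, through which neighbouring cells hold progenitors in a glial or stem state. Of 20 genes 7 had all SER values above all SS values and 1 all below, and Sox9 alone was called. Sox2, a transcription factor of neural stem cells that astrocytes keep, had 91.5, 71.0 and 84.2 CPM in SER mice 6, 19 and 20, while SS mice 18, 19 and 21 had 53.9, 56.8 and 55.7 CPM. The groups did not overlap, and the log2 fold change was 0.57 ± 0.13 (adjusted p = 0.0962). The list median was 0.15, with values from −0.77 (Notch3) to 0.79 (Sox9).

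**Figure D3:**
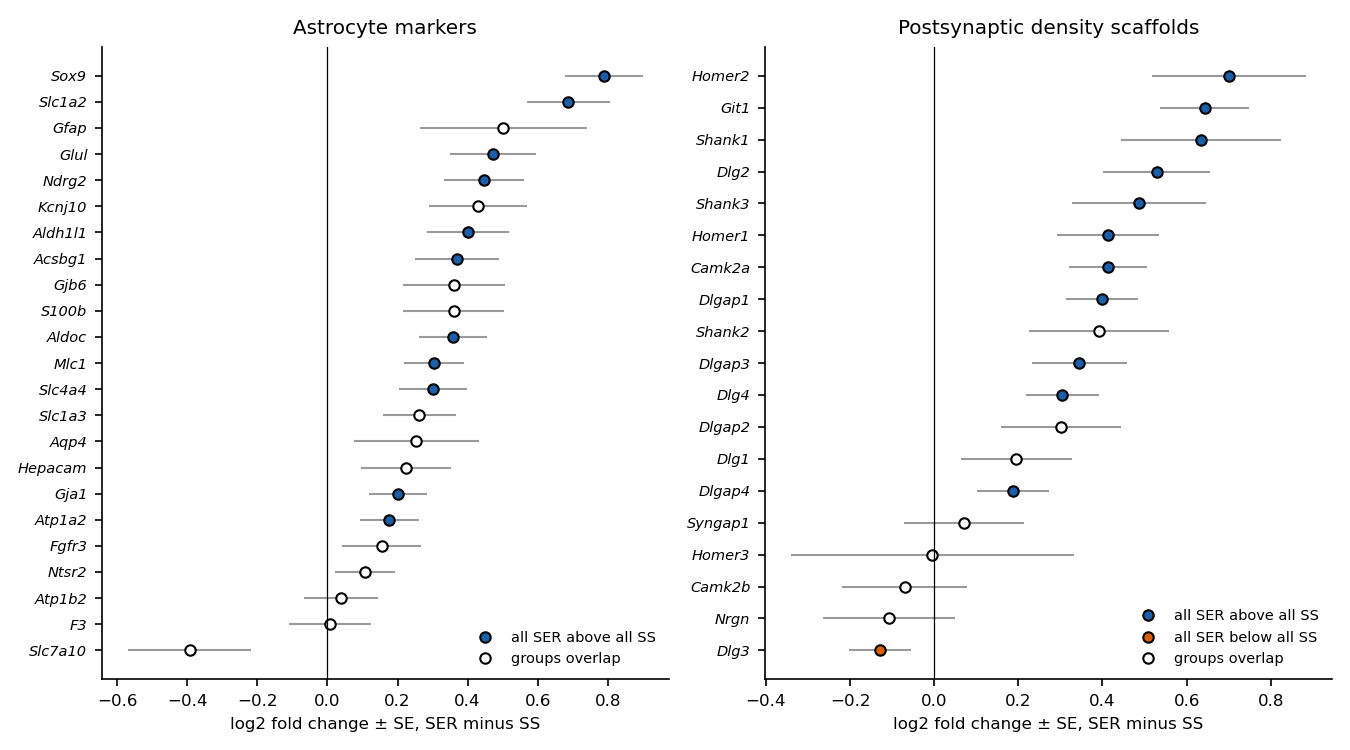
Log2 fold change of SER minus SS with its standard error (horizontal axes) for each member of the astrocyte and postsynaptic density lists (vertical axes). Blue points are genes with all SER values above all SS values (11 of 23 and 11 of 19), the orange point is the 1 gene with all SER values below, and open points are genes whose groups overlap.

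Fam107a and Git1 came next by p. Fam107a, also called DRR1, binds actin and is known as a stress-responsive gene that glucocorticoids induce in the mouse brain (mm10, chromosome 14, 8296270 to 8317607). SER mice 6, 19 and 20 had 1307, 1328 and 1266 CPM, while SS mice 18, 19 and 21 had 875, 645 and 702 CPM. The SER values were close together and all above SS, and SS mouse 18 was the highest of its group. The log2 fold change was 0.81 ± 0.13 (adjusted p = 0.0844), just outside the threshold, and over all alternatives the adjusted p ranged from 6.11e-07 with DESeq2 to 0.767. It passed with DESeq2, limma-voom, no filter on low counts, the choroid plexus covariate, the 4 genes listed at 0 kept, and without SS mouse 18. SES mice had 1127, 1031 and 1267 CPM and C mice 589, 679 and 534 CPM, so both running groups lay above all sedentary mice. Git1, a scaffold and GTPase-activating protein for Arf proteins that works at dendritic spines (mm10, chromosome 11, 77493288 to 77507774), had 589, 504 and 558 CPM in SER mice 6, 19 and 20, while SS mice 18, 19 and 21 had 385, 343 and 329 CPM. Its groups did not overlap, and its log2 fold change was 0.64 ± 0.10 (adjusted p = 0.0867). Over the whole actin and spine list, of 20 members 3 had all SER values above and 1 all below, 0 were called, and the median was 0.08. The actin and spine median was 0.11 without SS mouse 18, 0.02 against that mouse alone, 0.02 with the nuclear RNA covariate, and 0.15 when the covariate was added and that mouse left out.

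The DNA before the start of Fam107a is shown because the gene had the smallest p of the glucocorticoid-induced list. The sequences are from RefSeq (GRCm38.p6, the build named mm10), 250 bases up to the start, minus strand, 5′ to 3′. Capitals mark the core glucocorticoid receptor motif AGAACA or its complement TGTTCT, searched on both strands; the motifs do not overlap each other. The first window lies at chr14:8309780-8310029, before the start of the deposited transcript, and the second at chr14:8317608-8317857, before an upstream start.
Fam107a, deposited start: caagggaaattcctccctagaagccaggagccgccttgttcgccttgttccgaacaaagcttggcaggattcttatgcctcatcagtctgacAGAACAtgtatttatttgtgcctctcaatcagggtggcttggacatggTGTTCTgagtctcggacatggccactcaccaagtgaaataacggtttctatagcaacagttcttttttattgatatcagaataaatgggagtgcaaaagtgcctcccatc
Fam107a, upstream start: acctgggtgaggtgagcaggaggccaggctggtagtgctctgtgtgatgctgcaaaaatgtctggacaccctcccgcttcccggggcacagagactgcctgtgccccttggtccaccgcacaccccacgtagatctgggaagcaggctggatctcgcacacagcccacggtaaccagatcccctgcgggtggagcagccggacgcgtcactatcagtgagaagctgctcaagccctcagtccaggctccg
The first window held 1 AGAACA and 1 TGTTCT, and the second held neither. Of the 32851 such windows of all genes 16.1% held at least 1 of these motifs, as did 7 of the 31 windows of measured glucocorticoid-induced genes (22.6%), which belonged to 4 of 19 genes. The windows of Mt1 and Mt2 held neither. A match describes these letters and does not show a binding site.

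Many scaffold genes of the postsynaptic density had higher values in SER than in SS, and none passed the test. They are the proteins that anchor glutamate receptors and kinases under the excitatory synapse. Of 19 genes 11 had all SER values above all SS values, beside 8.93% of all genes, and 1 had all below. No member was called in edgeR's test in either direction. At its unadjusted p under 0.05, 12 were higher and 0 lower, beside 8.44% and 9.69% of all genes. DESeq2 called 8 higher and 0 lower, beside 2.10% and 1.68% of all genes. Dlgap1, a linker between PSD-95 and Shank proteins, had 1051, 1156 and 1096 CPM in SER mice 6, 19 and 20, while SS mice 18, 19 and 21 had 849.7, 808 and 848 CPM. The log2 fold change was 0.40 ± 0.09 (adjusted p = 0.0951), with groups that did not overlap. Homer1, a scaffold of group I metabotropic glutamate receptors with an activity-induced short form, had 153, 125 and 123 CPM in SER mice 6, 19 and 20, while SS mice 18, 19 and 21 had 102, 98.1 and 101 CPM. Its groups were also apart, with a fitted log2 difference of 0.41 ± 0.12 (adjusted p = 0.127). The list median was 0.34 and it was 0.34 without SS mouse 18, 0.32 against it alone and 0.32 with the nuclear RNA covariate. With both that mouse left out and the covariate added it was −0.05. Relative to the SS mean the median member stood at 0.33, 0.32 and 0.39 in the SER mice, at 0.03, 0.00 and −0.02 in SS, at 0.20, 0.15 and 0.15 in SES and at −0.18, 0.00 and −0.08 in C. The SER mice were the highest of all 12 and the SES mice came next, without overlap.

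Further genes with separated groups, taken in order of p, had higher values in SER. Itpr1, the inositol trisphosphate receptor that releases calcium from the endoplasmic reticulum, had 626, 573 and 810.1 CPM in SER mice 6, 19 and 20, while SS mice 18, 19 and 21 had 389.9, 395 and 304 CPM. The log2 fold change was 0.88 ± 0.16 (adjusted p = 0.0867). Prkcb, protein kinase C beta, had 1483, 1589 and 1576 CPM in SER mice 6, 19 and 20, while SS mice 18, 19 and 21 had 1179, 988 and 968 CPM. SER minus SS gave a log2 difference of 0.57 ± 0.10 (adjusted p = 0.0867). Neither gene overlapped between SER and SS, and neither passed. Snph, the syntaphilin that docks mitochondria in axons, had a fitted log2 difference of 0.48 ± 0.08 (adjusted p = 0.0867), and Zdhhc2, a palmitoyltransferase for PSD-95, of 0.82 ± 0.14 (adjusted p = 0.0867). Bmpr2, a receptor for bone morphogenetic proteins, stood at 266, 264 and 273 CPM in SER, at 208, 188 and 199 in SS and at 271, 258 and 254 in C, with a fitted log2 difference of 0.43 ± 0.08 (adjusted p = 0.0867). For Bmpr2 the SS mice were the ones that stood apart, below all SER, SES and C mice. Luzp2, a leucine zipper protein of the brain, had 230.3, 212 and 261 CPM in SER and 164, 165 and 147 CPM in SS (log2 difference 0.56 ± 0.10, adjusted p = 0.0867), and its C values of 204, 230.1 and 189 CPM also lay above SS.

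Of the genes lower in SER by value none passed. Glt8d1, a glycosyltransferase, had 13.0, 12.1 and 10.3 CPM in SER mice 6, 19 and 20, while SS mice 18, 19 and 21 had 19.2, 20.6 and 24.9 CPM. The log2 fold change was −0.87 ± 0.15 (adjusted p = 0.0867). Strada, the pseudokinase that activates the kinase LKB1, had 14.9, 13.6 and 14.1 CPM in SER mice 6, 19 and 20, while SS mice 18, 19 and 21 had 20.1, 26.1 and 27.3 CPM. The fitted log2 difference was −0.79 ± 0.14 (adjusted p = 0.0867). Tyk2, a Janus kinase of interferon and interleukin receptors, had 11.8, 10.1 and 10.5 CPM in SER mice 6, 19 and 20, while SS mice 18, 19 and 21 had 16.1, 19.5 and 19.5 CPM. On the log2 scale the groups differed by −0.76 ± 0.14 (adjusted p = 0.0867). In all 3 genes the SS mice were the highest of the 12, and the C mice had 16.6, 12.4 and 14.8 CPM of Glt8d1. They had 18.2, 13.9 and 14.6 CPM of Strada and 10.1, 8.88 and 10.4 CPM of Tyk2. Car12, a membrane-bound carbonic anhydrase, had 23.6, 30.5 and 18.7 CPM in SER mice 6, 19 and 20, while SS mice 18, 19 and 21 had 54.1, 47.8 and 50.1 CPM. Its log2 fold change was −1.06 ± 0.20 (adjusted p = 0.0918), and with the choroid plexus covariate it was called (−1.12, adjusted p = 0.0167). Tspan33, a tetraspanin, had a fitted log2 difference of −0.76 ± 0.15 (adjusted p = 0.0918) and was also called in that fit (−0.79, adjusted p = 0.0439). With SS mouse 18 left out and the nuclear RNA covariate added, both turned direction, to 0.84 for Car12 (adjusted p = 0.844) and 0.30 for Tspan33 (adjusted p = 0.975). Glb1l, a galactosidase-like gene, had −1.22 ± 0.24 (adjusted p = 0.0918), and Caprin2, an RNA-binding protein of Wnt signalling, −1.72 ± 0.34 (adjusted p = 0.0918). Prpf40b, a splicing factor, stood at 29.0, 33.3 and 28.9 CPM in SER and 38.2, 64.8 and 62.7 CPM in SS, where mice 19 and 21 were above mouse 18. SER minus SS gave a log2 difference of −0.86 ± 0.17 (adjusted p = 0.0918), and it was −0.31 against SS mouse 18 alone. The class I histocompatibility gene H2-Q4 (log2 difference −1.34 ± 0.27, adjusted p = 0.0918) and Mroh7 (log2 difference −1.65 ± 0.33, adjusted p = 0.0918) also had all SER values below all SS values. Near-identical copies of H2-Q4 make its reads uncertain. Tomm6os (log2 difference −0.92 ± 0.18, adjusted p = 0.0918) lies opposite Tomm6, and because the strand setting of the counting is not given its reads cannot be told apart from those of Tomm6 with certainty. Col13a1, a transmembrane collagen, had 3, 2 and 3 counts in SER and 10, 12 and 17 counts in SS, so its log2 fold change of −2.19 ± 0.44 (adjusted p = 0.0918) rests on few reads.

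Markers of the hippocampal neuron classes had medians that depended on SS mouse 18 and on the nuclear RNA covariate. CA1 and subiculum markers had a median log2 fold change of 0.44, with 6 of 16 genes with all SER values above all SS values, 0 below, and Pou3f1 as the 1 called member. Man1a, a mannosidase used as a CA1 marker, had 53.1, 42.1 and 55.4 CPM in SER mice 6, 19 and 20, while SS mice 18, 19 and 21 had 29.6, 32.2 and 25.7 CPM. Its groups did not overlap, and its log2 fold change was 0.78 ± 0.21 (adjusted p = 0.115). Relative to the SS mean the median marker was 0.45, 0.53 and 0.49 for the SER mice, while SS mice 18, 19 and 21 had −0.34, 0.24 and 0.06. The CA1 median was 0.41 without SS mouse 18, 0.83 against that mouse alone, 0.63 with the nuclear RNA covariate, and −0.17 when the covariate was added and that mouse left out. Dentate granule cell markers had a median of −0.20, with 2 of 13 all below SS and 0 all above. Plk5, a polo-like kinase of granule cells, had 12.7, 7.13 and 7.47 CPM in SER mice 6, 19 and 20, while SS mice 18, 19 and 21 had 14.0, 18.0 and 19.7 CPM. The fitted log2 difference was −0.92 ± 0.26 (adjusted p = 0.126). Npnt, the matrix protein nephronectin, had −0.41 ± 0.13 (adjusted p = 0.147). The dentate median was −0.26 without SS mouse 18, 0.09 against that mouse alone, −0.03 with the nuclear RNA covariate, and −0.29 when the covariate was added and that mouse left out. CA2 and CA3 markers had a median of −0.23, with 3 of 12 all below SS and 0 all above. The CA2 and CA3 median was −0.09 without SS mouse 18, −0.56 against that mouse alone, −0.31 with the nuclear RNA covariate, and 1.65 when the covariate was added and that mouse left out. The lowest member was Map3k15 (−1.23). Pcp4, a calmodulin-binding protein of CA2, had 111, 119 and 125 CPM in SER and 223, 126 and 156 CPM in SS (log2 difference −0.51 ± 0.22, adjusted p = 0.244). No dentate, CA2 or CA3 gene was called. Interneuron genes had a median of 0.10 with 2 of 16 all above and 1 all below. The interneuron median was −0.09 without SS mouse 18, 0.41 against that mouse alone, 0.26 with the nuclear RNA covariate, and −0.86 when the covariate was added and that mouse left out. Pvalb, the parvalbumin of fast-spiking cells, had 41.1, 50.8 and 43.5 CPM in SER and 40.8, 32.3 and 32.7 in SS (log2 difference 0.36 ± 0.13, adjusted p = 0.192), where SER mouse 6 and SS mouse 18 nearly touched. Calb2, the calretinin gene, had overlapping groups (log2 difference −0.75 ± 0.32, adjusted p = 0.238). The nuclear and choroid plexus levels differed among the SS mice as given above, and their part in these medians was not tested beyond the fits named.

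**Figure D4:**
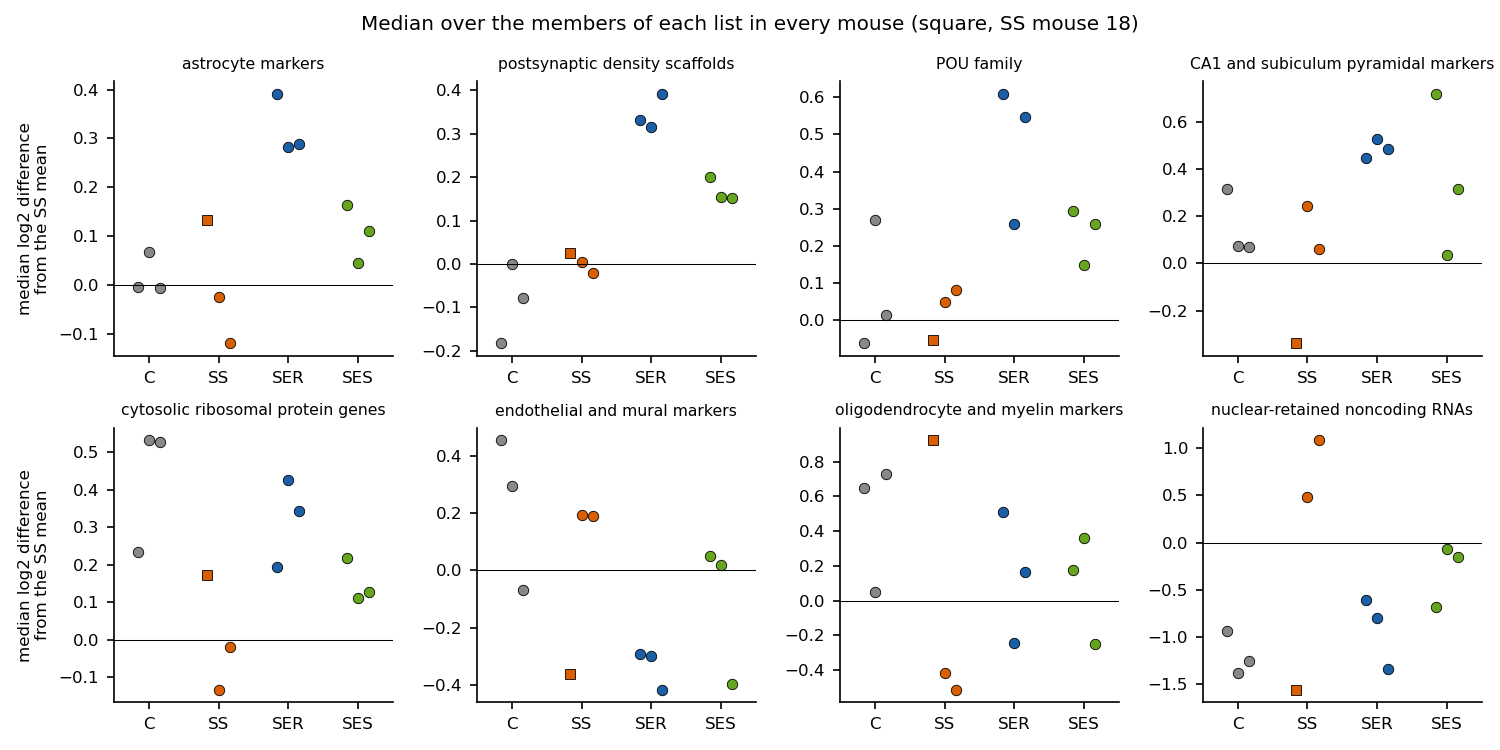
Median over the members of 8 gene lists of the log2 difference from the SS mean (vertical axes) in each of the 12 mice, by group (horizontal axes); the square is SS mouse 18. In the astrocyte and postsynaptic density panels the SER mice lie above all others, while in the myelin and nuclear RNA panels SS mouse 18 and SS mice 19 and 21 lie at opposite ends.

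Stress hormone genes gave no call. The receptors Nr3c1 and Nr3c2 bind corticosterone, and the induced genes listed are their known targets. Nr3c1, the glucocorticoid receptor, had 117, 92.3 and 129.96 CPM in SER mice 6, 19 and 20, while SS mice 18, 19 and 21 had 82.3, 89.2 and 80.7 CPM. The groups were apart by a small margin, and the log2 fold change was 0.43 ± 0.14 (adjusted p = 0.148). Crh, corticotropin-releasing hormone, was counted at 29, 33 and 20 reads in SER and 17, 18 and 16 in SS (log2 difference 0.71 ± 0.28, adjusted p = 0.212). The 21 glucocorticoid-induced genes were split, with 3 all above SS, 4 all below, and a median of 0.09. Mt2, a metal-binding metallothionein, had 479, 497 and 404 CPM in SER mice 6, 19 and 20, while SS mice 18, 19 and 21 had 342, 210.03 and 253 CPM. Its groups did not overlap, and its log2 fold change was 0.78 ± 0.18 (adjusted p = 0.11). Fkbp5, a chaperone partner that restrains the glucocorticoid receptor, had 113, 124 and 110.2 CPM in SER mice 6, 19 and 20, while SS mice 18, 19 and 21 had 145, 79.4 and 85.4 CPM. SS mouse 18 was the highest and SS mice 19 and 21 the lowest of the 6, and the log2 fold change was 0.17 ± 0.22 (adjusted p = 0.728). The glucocorticoid-induced median was 0.32 without SS mouse 18, −0.27 against that mouse alone, −0.06 with the nuclear RNA covariate, and 0.56 when the covariate was added and that mouse left out.

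Growth factor and activity genes also gave no call. Bdnf, brain-derived neurotrophic factor, had 53.1, 51.0 and 51.0 CPM in SER mice 6, 19 and 20, while SS mice 18, 19 and 21 had 41.7, 39.4 and 40.0 CPM. All SER values lay above all SS values, and the log2 fold change was 0.36 ± 0.10 (adjusted p = 0.123). SES mice had 50.2, 57.3 and 52.7 CPM and C mice 45.3, 44.5 and 54.5 CPM, which overlapped SER. Ntrk2, its receptor TrkB, had 780.2, 811 and 888 CPM in SER mice 6, 19 and 20, while SS mice 18, 19 and 21 had 588, 644 and 572 CPM. The groups did not overlap, and the log2 fold change was 0.46 ± 0.11 (adjusted p = 0.11). The other 13 tested members of the growth factor list all had overlapping groups, and the list median was −0.04. That growth factor median was 0.09 without SS mouse 18, 0.29 against that mouse alone, 0.16 with the nuclear RNA covariate, and 0.30 when the covariate was added and that mouse left out. Immediate early genes, which neurons switch on within minutes of activity, had a median of 0.41, with 17 of 18 positive but only 1 (Homer1) with separated higher groups. The immediate early median was 0.27 without SS mouse 18, 0.72 against that mouse alone, 0.50 with the nuclear RNA covariate, and −0.80 when the covariate was added and that mouse left out. Fos, an activity-induced transcription factor, had 18.3, 13.8 and 36.0 CPM in SER mice 6, 19 and 20, while SS mice 18, 19 and 21 had 3.78, 13.0 and 17.1 CPM. SER mouse 20 was the highest and SS mouse 18 the lowest, the groups overlapped, and the log2 fold change was 0.98 ± 0.42 (adjusted p = 0.242). Jun had the opposite sign (log2 difference −0.34 ± 0.12, adjusted p = 0.184), with all SER values below all SS values. Of 17 exercise-linked metabolic regulators 2 were separated higher and the median was 0.08. The exercise-linked median was 0.15 without SS mouse 18, 0.04 against that mouse alone, 0.01 with the nuclear RNA covariate, and 0.09 when the covariate was added and that mouse left out. Tfam, a mitochondrial transcription factor, had 0.29 ± 0.10 (adjusted p = 0.164).

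Receptor genes for inhibitory transmitters and for glutamate gave no call. Of 18 GABA and glycine receptor genes 7 had all SER values above all SS values, 0 below, and the median was 0.19. The inhibitory receptor median was 0.18 without SS mouse 18, 0.26 against that mouse alone, 0.18 with the nuclear RNA covariate, and −0.14 when the covariate was added and that mouse left out. Gabrb1, the beta 1 subunit of the GABA-A receptor, had 44.1, 41.6 and 40.9 CPM in SER mice 6, 19 and 20, while SS mice 18, 19 and 21 had 26.8, 31.7 and 31.7 CPM. The log2 fold change was 0.49 ± 0.11 (adjusted p = 0.0951), and for Gabra2, the alpha 2 subunit, it was 0.32 ± 0.09 (adjusted p = 0.125). Of 21 glutamate receptor genes 3 were all above, 3 all below, and the median was −0.17. Grin2a, an NMDA receptor subunit, had 88.9, 72.8 and 108 CPM in SER mice 6, 19 and 20, while SS mice 18, 19 and 21 had 61.6, 56.4 and 38.6 CPM. On the log2 scale the groups differed by 0.78 ± 0.29 (adjusted p = 0.19), and Grm3, a metabotropic receptor of astrocytes and neurons, had 0.55 ± 0.20 (adjusted p = 0.177). The glutamate receptor median was −0.28 without SS mouse 18, 0.30 against that mouse alone, 0.03 with the nuclear RNA covariate, and −0.34 when the covariate was added and that mouse left out.

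Ribosomal protein genes were the list with the largest number of separated members, although the share separated higher was larger in the POU list (71.4% against 62.5%). Of 32 genes 20 had all SER values above all SS values and 0 all below, beside 8.93% and 7.94% of all genes. None was called, and 25 were higher at edgeR's unadjusted p under 0.05, beside 8.44% of all genes. Rps14, a protein of the small subunit, had 782, 988 and 874 CPM in SER mice 6, 19 and 20, while SS mice 18, 19 and 21 had 667, 491 and 558 CPM. Its log2 fold change was 0.62 ± 0.13 (adjusted p = 0.0939), and that of Rps24 0.49 ± 0.11 (adjusted p = 0.1). The median was 0.33. The ribosomal median was 0.40 without SS mouse 18, 0.17 against that mouse alone, 0.23 with the nuclear RNA covariate, and 0.02 when the covariate was added and that mouse left out. Many near-identical copies in the genome make the division of these reads uncertain. In C mice the median member stood at 0.24, 0.53 and 0.53 relative to the SS mean, against 0.19, 0.43 and 0.34 in SER. Nuclear-encoded oxidative phosphorylation genes had a median of 0.07 with 3 of 37 separated higher. The oxidative phosphorylation median was 0.16 without SS mouse 18, −0.03 against that mouse alone, −0.01 with the nuclear RNA covariate, and 0.07 when the covariate was added and that mouse left out. The smallest p values belonged to the cytochrome c oxidase subunit Cox4i1 (log2 difference 0.28 ± 0.10, adjusted p = 0.178) and the ATP synthase subunit Atp5c1 (log2 difference 0.20 ± 0.08, adjusted p = 0.199).

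Glial and vascular lists outside the astrocytes went different ways. Microglia markers had a median of 0.26, with 7 of 17 separated higher and 1 lower. The microglia median was 0.24 without SS mouse 18, 0.18 against that mouse alone, 0.19 with the nuclear RNA covariate, and 0.09 when the covariate was added and that mouse left out. Gpr34, a receptor of microglia, had 21.0, 19.5 and 20.3 CPM in SER mice 6, 19 and 20, while SS mice 18, 19 and 21 had 15.0, 13.1 and 9.70 CPM. SER and SS values were apart, with a fitted log2 difference of 0.69 ± 0.20 (adjusted p = 0.126). Endothelial and mural markers had a median of −0.41, with 5 of 18 separated lower and 0 higher. Emcn, the endothelial sialomucin endomucin, had 1.92, 1.65 and 0.769 CPM in SER mice 6, 19 and 20, while SS mice 18, 19 and 21 had 2.76, 4.13 and 4.43 CPM. The fitted log2 difference was −1.36 ± 0.35 (adjusted p = 0.11), and that of Myh11, the smooth muscle myosin, −0.59 ± 0.22 (adjusted p = 0.19). The endothelial median was −0.56 without SS mouse 18, −0.06 against that mouse alone, −0.20 with the nuclear RNA covariate, and −0.29 when the covariate was added and that mouse left out. Myelin markers had a median of 0.01 with 0 separated genes in either direction, and that median turned from 0.59 without SS mouse 18 to −0.75 against it alone. Opalin, a myelin protein, had overlapping groups (log2 difference −0.37 ± 0.25, adjusted p = 0.462). Choroid plexus markers had a median of −1.38, with 12 of 16 negative, 4 positive and 0 separated in either direction. That median went from 2.44 to −2.79 in the same way. Rarres2, the chemerin gene and one of the positive members, stood at 13.2, 9.30 and 8.46 CPM in SER and 8.69, 3.34 and 4.77 CPM in SS (log2 difference 0.91 ± 0.29, adjusted p = 0.147). The thalamic marker Tnnt1 stood at 20.8, 0.556 and 0.766 CPM in SS, high in mouse 18, and at 1.36, 1.91 and 0.989 CPM in SER (log2 difference −2.32 ± 1.21, adjusted p = 0.334).

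Interferon response genes had a median of −0.10, with 4 of 21 separated lower and 0 higher. The interferon median was 0.10 without SS mouse 18, −0.07 against that mouse alone, 0.05 with the nuclear RNA covariate, and 1.16 when the covariate was added and that mouse left out. Irf7, an interferon regulatory factor, was counted at 5, 6 and 3 reads in SER and 16, 15 and 8 in SS, few in both, with a fitted log2 difference of −1.44 ± 0.46 (adjusted p = 0.143). Stat2 had −0.71 ± 0.22 (adjusted p = 0.133), with SS mice 19 and 21 above the rest. Sterol synthesis genes had 3 of 18 separated lower and a median of −0.13. The sterol median was −0.20 without SS mouse 18, 0.06 against that mouse alone, −0.03 with the nuclear RNA covariate, and −0.77 when the covariate was added and that mouse left out. Nsdhl, an enzyme of the pathway, had 14.0, 15.6 and 15.7 CPM in SER mice 6, 19 and 20, while SS mice 18, 19 and 21 had 16.8, 22.9 and 20.9 CPM. SER and SS values were apart, with a fitted log2 difference of −0.42 ± 0.14 (adjusted p = 0.147). Clock genes had a median of 0.07, with Bhlhe41 at 0.36 ± 0.11 (adjusted p = 0.13) and Rorb at 0.44 ± 0.15 (adjusted p = 0.171). Nuclear-retained noncoding RNAs had a median of −1.28, with 8 of 10 negative. By edgeR's unadjusted p under 0.05, 7 were lower and 1 higher, beside 9.69% and 8.44% of all genes. The nuclear RNA median was −1.77 without SS mouse 18 and 0.77 against that mouse alone. Of the 10 genes 1 (Neat1) was separated lower and 1 higher. Neat1, the scaffold RNA of nuclear paraspeckles, had 49.8, 32.0 and 27.8 CPM in SER mice 6, 19 and 20, while SS mice 18, 19 and 21 had 50.6, 79.9 and 107 CPM. On the log2 scale the groups differed by −1.11 ± 0.28 (adjusted p = 0.11). Meg3, an imprinted nuclear RNA, had 565, 517 and 345 CPM in SER mice 6, 19 and 20, while SS mice 18, 19 and 21 had 242, 3707 and 3721 CPM. SS mice 19 and 21 were far above SS mouse 18, and the log2 fold change was −2.43 ± 0.64 (adjusted p = 0.115). Otof, the otoferlin gene, and Slc30a3, the zinc transporter of synaptic vesicles, followed the same SS mice. Otof stood at 3.37, 25.4 and 24.5 CPM in SS and 4.71, 5.91 and 6.37 CPM in SER (log2 difference −1.66 ± 0.51, adjusted p = 0.134), and Slc30a3 at 50.7, 83.3 and 90.1 and 46.4, 45.9 and 35.9 CPM (log2 difference −0.81 ± 0.19, adjusted p = 0.109). Neurogenesis markers had a median of −0.21, oligodendrocyte precursor markers of 0.00, striatal markers of −0.09 and cortical and amygdalar markers of 0.00, with 0 genes called in any of them. In the order without SS mouse 18, against that mouse alone, with the nuclear RNA covariate, and with the covariate and that mouse left out, the neurogenesis median was −0.04, 0.15, 0.10 and −0.19. In the same order the precursor median was 0.06, −0.08, −0.10 and 0.06, the striatal median −0.11, 0.15, −0.03 and −0.07, the cortical and amygdalar median −0.13, 0.43, 0.22 and −0.37 and the clock median 0.06, 0.05, −0.01 and −0.03.

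**Figure D5:**
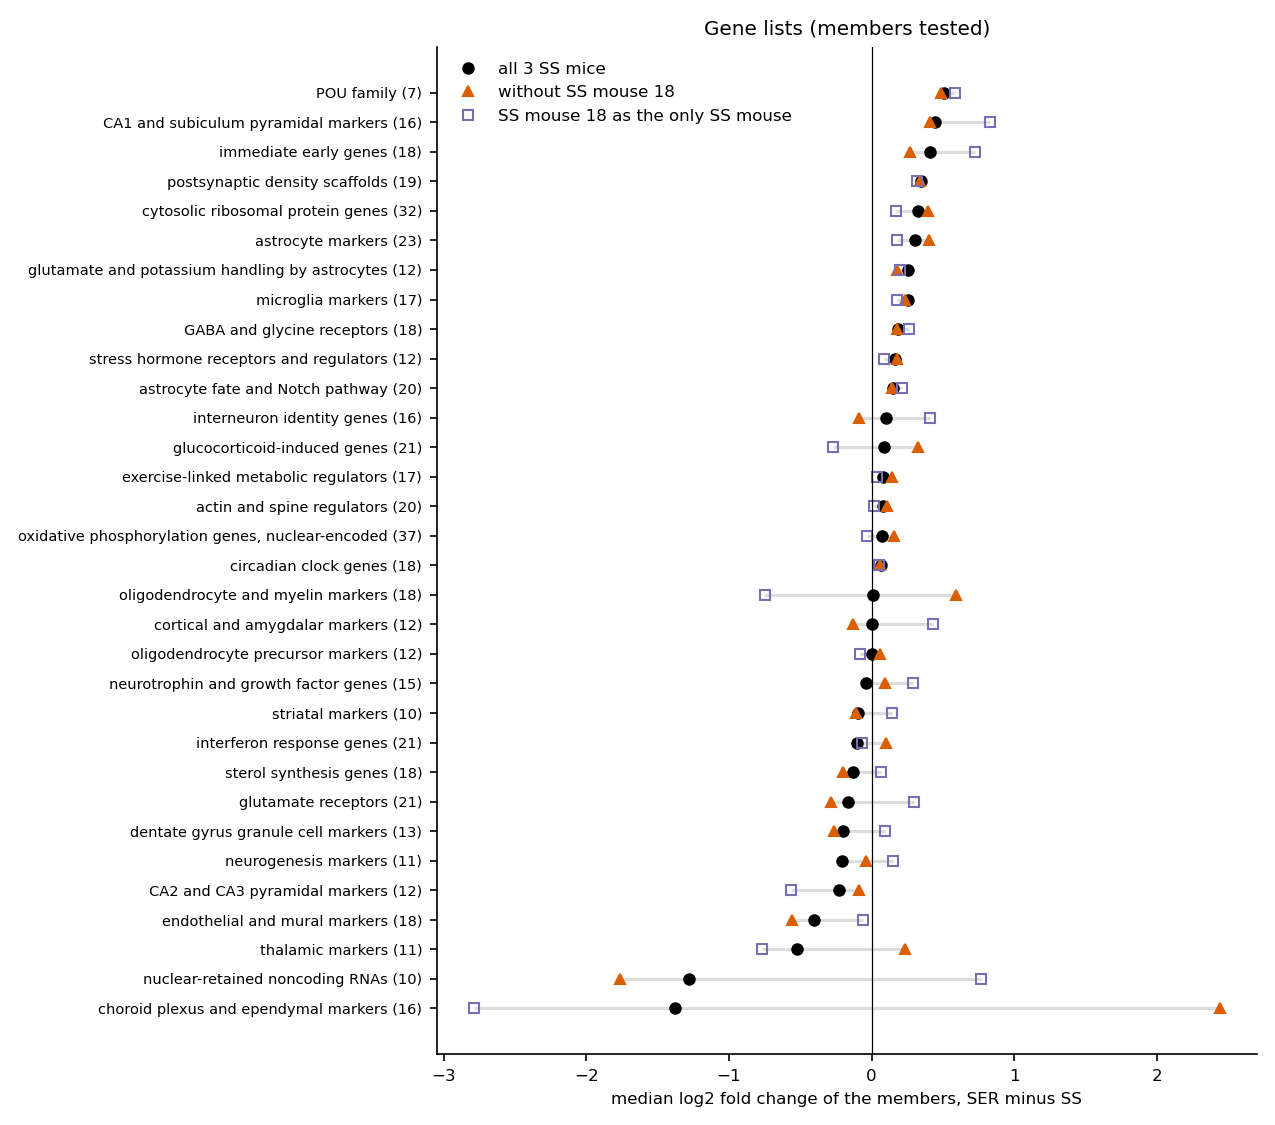
Median log2 fold change of SER minus SS over the tested members (horizontal axis) of the 32 gene lists (vertical axis, number of members in brackets), with all 3 SS mice (black), without SS mouse 18 (orange) and against SS mouse 18 alone (open). The POU and postsynaptic density lists hardly move, from 0.32 to 0.34 for the latter (−0.05 when SS mouse 18 is left out and nuclear RNA is a covariate, not drawn), while the myelin, choroid plexus and nuclear RNA lists change sign.

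Without SS mouse 18, on SS mice 19 and 21 alone, many genes of these lists passed edgeR's test. Of astrocyte markers 14 higher and 0 lower of 23 tested were called, of ribosomal protein genes 22 higher and 0 lower of 32 tested, and of postsynaptic scaffolds 7 higher and 0 lower of 19 tested. Of nuclear RNAs 0 higher and 7 lower of 10 tested were called and of myelin markers 5 higher and 0 lower of 18 tested. Dentate markers had 0 higher and 5 lower of 13 tested, glutamate receptors 0 higher and 5 lower of 21 tested, GABA and glycine receptors 4 higher and 0 lower of 18 tested, and sterol genes 0 higher and 4 lower of 18 tested. These counts stand beside 7.32% higher and 9.00% lower of all genes. In that fit Pou3f1 had a log2 difference of 0.94 (adjusted p = 0.000452), Sox9 of 0.83 (adjusted p = 0.000593), Fam107a of 0.95 (adjusted p = 0.000126), Git1 of 0.71 (adjusted p = 0.000727) and Slc1a2 of 0.71 (adjusted p = 0.00229). Malat1 also passed there, at −1.80 (adjusted p = 0.000727), in a direction opposite to the 1.37 found against SS mouse 18 alone. The nuclear RNA level of SS mice 19 and 21 lay above that of all 10 other mice, and in that fit 94.8% of the variance of the level lay between the 4 groups, so the level and the SS group cannot be told apart there. With the level added as a covariate no gene was called, the standard errors were 3.498 times as large in the median gene, and 21 of 68 named genes changed sign. The median of the astrocyte list was then 0.21, that of the ribosomal list 0.02 and that of the POU list 0.26. Pou3f1 stood at a log2 difference of 0.89 (adjusted p = 0.723), Sox9 at 0.98 (adjusted p = 0.626) and Slc1a2 at −0.18 (adjusted p = 0.982).

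SER and SES mice were compared directly, because comparisons of each with SS share the SS libraries. At an adjusted p under 0.05 edgeR called 0 genes and limma-voom 0, while 533 genes (3.66%) had an unadjusted p under 0.05. By DESeq2 the count was 1 (0.00687%), Atp6v0c-ps2, a pseudogene named here because of that count. The groups did not overlap for 1577 genes (10.8%). Astrocyte markers had 11 of 23 genes with all SER values above all SES values and 0 below, and a median difference of 0.17. Postsynaptic scaffolds had 5 of 19 above, 0 below and a median of 0.14. Ribosomal protein genes had 11 of 32 above and 0 below (median 0.17), and microglia markers 6 of 17 above and 0 below (median 0.27). Nuclear RNAs had 0 above and 5 of 10 below (median −0.67), and choroid plexus markers 0 above and 6 of 16 below (median −1.75). Glucocorticoid-induced genes had 0 above and 4 of 21 below (median −0.14), and interferon response genes had a median of −0.41 with 1 of 21 below. The mean log2 CPM of the choroid plexus list was 2.04 to 3.67 in SER and 3.58 to 5.05 in SES, which overlapped. That of the nuclear RNA list was 6.37 to 6.79 in SER and 6.93 to 7.30 in SES. By the median nuclear RNA relative to the SS mean, SER mouse 6 (−0.61) lay above SES mouse 9 (−0.68). The part of these 2 levels in the other lists was not tested. The counts stand beside 5.49% above and 5.35% below over all genes. Of the genes set out above, Fam107a had a SER minus SES difference of 0.19 ± 0.12 (adjusted p = 0.999), Git1 of 0.19 ± 0.10 (adjusted p = 0.999), Snph of 0.30 ± 0.08 (adjusted p = 0.999), Itpr1 of 0.44 ± 0.16 (adjusted p = 0.999) and Car12 of −0.66 ± 0.20 (adjusted p = 0.999), none of which passed.

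In the test on transcripts as deposited, 1 was higher and 1 lower in SER, both named here because of that count. NM_001163186 of Plekhb1, a pleckstrin-homology protein, had 303, 336 and 263 counts in SER and 70, 47 and 85 in SS (log2 fold change 2.18 ± 0.24, adjusted p = 0.0476). It had 387, 303 and 297 counts in SES and 212, 372 and 299 in C, so the SS mice alone were low. The main Plekhb1 transcript, NM_001163187, had 6025, 3691 and 3718 counts in SER and 6701, 2872 and 2663 in SS, which overlapped. The transcript lower in SER was NM_001146200 of Pik3cg, which was listed at 0 in all 3 SER libraries and had 37, 40 and 36 counts in SS. NM_020272 of the same gene had 0, 54 and 65 counts in SER and 0, 19 and 0 in SS, and NM_001146201 had 52 in SER mouse 6, so reads of Pik3cg were listed under other isoforms in SER. The division between isoforms is uncertain for both genes.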

How the data were processed

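Ventral hippocampal RNA of 12 mice was sequenced from NEBNext Ultra II Directional libraries, per the labels' protocols. The authors deposited 1 table per mouse of whole-number estimated counts, not normalized, for 33299 RefSeq transcripts under 23183 symbols. TopHat and mm10 are named in the submitters' processing notes. Sources used here do not give the counting program, the strand setting or the annotation release (not stated). Rounding changed no value, and isoform values were summed per symbol, assuming that reads were divided among isoforms.

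Lars2, Zc3h7a, Cmss1 and Filip1l were removed before library sizes. edgeR 4.0.16 (R 4.3.3) kept 14548 genes with filterByExpr (minimum count 10), scaled with TMM factors and fitted 4 group means to all 12 libraries (8 residual degrees of freedom; biological coefficient of variation 15.7%). Two-sided quasi-likelihood tests gave every adjusted p (Benjamini-Hochberg over all genes, threshold 0.05) unless DESeq2 1.42.0 or limma 3.58.1 (voom) is named. The ± beside a log2 fold change is a standard error from the F statistic. The scripts were tested on simulated data. A count of 0 allows 3 counts, 0.192 to 0.330 CPM by library; this and other counting error leaves out amplification.

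Members and the 32 gene lists were chosen with earlier results of these data known, so lists carry no test. Named genes were the called genes, the 12 with the smallest p in each direction among genes whose groups do not overlap, the 2 with the smallest p of each list, and 10 set genes, of which a selection is given. Transcripts that were called, transcripts listed at 0, lowest list members and Prkcd were named after their values were seen. Alternatives changed the test, the scaling, the filter, the libraries or the covariates. The alternative that left out SS mouse 18 and added the nuclear RNA covariate was chosen after seeing the data. So was the fit against SS mouse 18 alone. Covariates were mean log2 CPM (prior count 2) of the choroid plexus and nuclear RNA lists. Some items are not reported here. Coordinates are those of the RefSeq table of GRCm38.p6 (mm10), matched by transcript, counted from 1.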

Additional observations from a re-analysis of the deposited data

How the results depend on the processing

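The number of genes called higher (2) became 305 with DESeq2, 6 with no filter on low counts and 14 with the choroid plexus covariate. It became 1 with upper-quartile factors, 1 among transcripts, and 0 in the fit of only the 2 groups, with the nuclear RNA covariate and against SS mouse 18 alone. The number called lower (0) became 245 with DESeq2, 1 among transcripts, 4 with the choroid plexus covariate and 4 when the 4 genes listed at 0 were kept. Leaving out 1 library gave 0 to 1080 higher and 0 to 1328 lower, with the maxima without SS mouse 18. The count higher was 0 without SER mouse 6, 19 or 20 or SS mouse 21, and 1 without SS mouse 19. For SER against SES the count of 0 became 1 with DESeq2, 1 among transcripts and 4 with the 4 genes kept.

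An alternative chosen after seeing the data left out SS mouse 18 and added the nuclear RNA covariate. It called 0 higher and 0 lower where leaving out that mouse alone had called 1080 and 1328. The level is nearly collinear with the groups there (94.8% of its variance between groups, against 41.2% over all 12 libraries), so the calls without SS mouse 18 do not separate running from the nuclear RNA level. Under it 21 of 68 named genes turned direction, with log2 fold changes of −0.18 for Slc1a2, −0.069 for Snph, −0.25 for Luzp2, 0.10 for Glt8d1, 0.84 for Car12, 0.30 for Tspan33, 1.18 for Caprin2, 1.03 for Plk5, 0.0579 for Npnt, 0.83 for Pcp4, −0.0462 for Gpr34, 1.15 for Neat1, −0.58 for Nr3c1, −0.43 for Ntrk2, −0.0976 for Tfam, −0.67 for Grm3, −0.29 for Grin2a, −1.33 for Fos, 22.89 for Ttr, 0.48 for Malat1 and 8.70 for Tnnt1.

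Other reversals were fewer. Against SS mouse 18 alone, a fit also chosen after seeing the data, the log2 fold change was 0.76 for Otof, 0.99 for Meg3, 1.37 for Malat1 and −0.30 for Fkbp5. With the nuclear RNA covariate it was −0.0604 for Fkbp5 and 0.43 for Malat1. For Ttr it was 1.08 with limma-voom, 0.35 with the choroid plexus covariate and 5.48 without SS mouse 18 (from −5.10 to 5.48 over the libraries left out), and for Tnnt1 1.12 without SS mouse 18 (−2.87 to 1.12). Each covariate is the mean of its gene list, so a member of that list, such as Neat1 for nuclear RNA, was adjusted in part for itself. The cause of the reversals was not tested. Of 68 named genes 50 passed without SS mouse 18 that had not passed with it. Of 576 list medians under alternatives 506 moved by less than 1 SD between mice, an SD that includes the spread among the SS mice. Of the 32 medians 20 moved by more against SS mouse 18 alone, and 9 without that mouse. With the nuclear RNA covariate 8 moved by more, and 21 when that mouse was left out as well. No paired analysis was possible because SER and SS share only mouse number 19, which names different mice. Genes with few counts, such as Col13a1 and Irf7, are limited by depth.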
